A study of Mus musculus with 22 samples.

Results

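The 7 nuclear loci for mitochondrial respiration, the mitochondrial ribosome and mitochondrial protein import described here were measured in libraries made to capture RNA of cerebellar Purkinje cells (PCs) from Tsc1-mutant and control mice. The supplementary gene tables of the study pair 1832 of the 66494 deposited loci with a gene symbol, and the loci were chosen from those symbols when they began with Nduf, Sdh, Uqcr, Cox, Atp5, Mrpl, Mrps, Timm or Tomm, with Tomm70a left out. This gave 7 genes: 2 with Atp5, 3 with Mrps, 1 with Mrpl and 1 with Timm. None of the 1832 symbols began with Nduf, Sdh, Uqcr or Cox, so respiratory complexes other than ATP synthase are not represented.

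Respiration in the inner mitochondrial membrane builds a proton gradient that ATP synthase uses to make ATP, for which spontaneously firing PCs have a high demand. Most proteins of this machinery are encoded in the nucleus, translated in the cytosol and imported through the TOM and TIM complexes, whereas a few core subunits are made inside the organelle by a dedicated mitochondrial ribosome. The TSC1 protein restrains the kinase mTOR, rapamycin inhibits mTOR, and mTOR is known to promote translation of many mRNAs for cytosolic ribosomal proteins and of some for mitochondrial proteins.

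Control mice were Tsc1+/+ and mutant mice Tsc1 fl/fl, labelled WW and CC, on a C57BL/6 background. The methods give L7Cre, in which the L7 (Pcp2) promoter drives Cre in PCs, for both genotypes, but elsewhere the study describes sorted controls with L7GFP and no Cre. In mutants the deletion affects PCs while the rest of the cerebellum keeps the floxed allele. For total RNA the mice also carried L7GFP, and GFP-positive cells of dissociated cerebellum were sorted into 5 mutant libraries (61, 74, 103, 167 and 191) and 5 control libraries (45, 48, 144a, 144b and 176). The methods name a pair of ages, P21 and P42, for sorting, and the labels do not say which applies to a library. For translating ribosome affinity purification (TRAP) the mice carried Rosa26fsTRAP, which puts the tagged ribosomal protein RPL10A-EGFP into Cre-expressing cells, and ribosome-bound mRNA was pulled down from 3 controls, 3 mutants, 3 controls treated with rapamycin and 3 mutants treated with rapamycin. The labels give no rapamycin dose, schedule or age for the TRAP libraries. Tsc1 itself was not analysed here, so the genotype labels were not checked on it.

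Sorted libraries held 43.3 to 86.3 M estimated fragments and TRAP libraries 2.47 to 6.38 M. In TRAP mutant library 3 the 10 highest loci took 40.5% of the total, while in other TRAP libraries they took up to 72.6%. The names of the sorted libraries carry a tag that splits the groups: mutants 61, 74 and 103 carry MS2723, controls 45, 48 and 144b carry MS2872, and mutants 167 and 191 with controls 144a and 176 carry MS3005. The animal number in the names of 144a and 144b is shared, so the 5 control libraries carry 4 animal numbers, and an SD or SE over 5 controls may count 1 animal more than once. Across all sorted libraries the 14 measured PC markers had a summed value of 349415 to 631323 in controls, 334827 to 344972 in the mutants tagged MS3005 and 51547 to 111698 in the mutants tagged MS2723. The 5 astroglial markers summed to 335536 to 413037 in those last 3 mutants and to 142510 to 343389 in the controls. The 9 microglial markers summed to 13771 to 57449.5 in sorted controls and 15943.6 to 38208.1 in sorted mutants. The 6 vascular markers summed to 17395.5 to 44642 and 6355.14 to 34558.6. Markers of other cell types were thus present, and values given for sorted PCs may include RNA of such cells. Each of the 14 PC markers had a value above 0 in every sorted control library, and 13 of them in every sorted mutant library. In bulk RNA, fewer cells of a type and less RNA per cell cannot be told apart.

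Atp5g1 (XLOC_010284, GRCm38 chr11:96068852-96075670, minus strand) encodes a subunit of the membrane-embedded c-ring of ATP synthase. Atp5l2-ps (XLOC_008764, chr11:97768060-97768371, plus strand) is a processed pseudogene of the ATP synthase subunit gene Atp5l. Its 312 bases are 99.4% identical to Atp5l, so that its reads could belong to that gene. Mrps21 (XLOC_037237, chr3:95862634-95871519, minus strand), Mrps22 (XLOC_060616, chr9:98588730-98601660, minus strand) and Mrps25 (XLOC_048606, chr6:92169525-92184033, minus strand) encode proteins of the small subunit of the mitochondrial ribosome. Mrpl55 (XLOC_008146, chr11:59202486-59206134, plus strand) encodes a protein of its large subunit. Timm8b (XLOC_058593, chr9:50603910-50605320, plus strand) encodes a small TIM chaperone that escorts hydrophobic proteins across the intermembrane space. In the GENCODE annotation the matching transcripts have 5 exons (Atp5g1), 1 (Atp5l2-ps), 3 (Mrps21), 8 (Mrps22), 4 (Mrps25), 4 (Mrpl55) and 2 (Timm8b), and the values cover each locus as a whole.

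Some of these loci share sequence or position with others. Mrps25 overlaps Nr2c2 on the opposite strand over 4770 bases, Mrps22 overlaps the antisense transcript Gm37637 over 1256 bases, and Timm8b overlaps Nkapd1 over 81 bases. Whether the counting used strand is not given in the sources used here, so reads in these overlaps cannot be told apart. Pseudogene copies exist for Atp5g1 (Gm10039, 99.76% identical over 411 bases), Mrps21 (Gm6181, 97.35% identical over 264 bases) and Mrps25 (Gm42933, 98.0% identical over 2070 bases). The 5′ end of Timm8b lies 98 bases from Sdhd, which encodes a membrane subunit of succinate dehydrogenase and is read in the other direction.

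The promoters of 6 of the 7 genes, all but Atp5l2-ps, could be read from RefSeq (GRCm38.p6, from 250 bases before to 50 bases after the annotated start). GABP, an ETS family factor, and NRF-1 are known regulators of nuclear genes for mitochondrial proteins, and YY1 is another. The GABP core CCGGAAG, searched on both strands, was found in 3 of the 6 promoters, and in 8.86% of all 32851 promoters of the same length. The 3 windows are shown because each holds the core close to the annotated start, with the core in capitals and each window written 5′ to 3′ on the strand of the gene.
Mrps21, chr3:95871478-95871507 (minus): cgtagcttccgCTTCCGGtccgcagagacc
Mrps22, chr9:98601672-98601701 (minus): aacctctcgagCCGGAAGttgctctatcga
Timm8b, chr9:50603878-50603907 (plus): tgaagcgtgaaCCGGAAGgcaggagacggt
Counted from the annotated start, the core lies at position 18 in Mrps21, in reverse complement, at -11 in Mrps22 and at -12 in Timm8b. The Timm8b promoter also held the YY1 core ATGGCGG in reverse complement at position -118, a core present in 4.05% of all promoters. The NRF-1 core CGCATGCG was in none of the 6, and in 1.87% of all promoters. The cores were searched separately, and a match is a description of letters, not a bound site.

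Messages of the TOP class, which include most cytosolic ribosomal protein mRNAs and whose translation responds to mTOR, begin with a C followed by pyrimidines. A short stretch around each annotated start is given because this property bears on rapamycin, with the annotated first base as the sixth letter.
Atp5g1: aagctgggaggtgag
Mrpl55: tccgtggcgtcatca
Mrps21: gtcgcgggactccgt
Mrps22: gttgctctatcgatt
Mrps25: ccaagattcccggag
Timm8b: gcaggagacggtgcg
A C followed by 4 pyrimidines at the annotated start was found in 0 of the 6 genes and in 2.51% of all promoters. Annotated starts can differ from the starts used in PCs, which these libraries do not show.

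All 7 genes were listed by the study for a change in TRAP relative to total RNA, and Mrps22 also for its untreated TRAP difference. The mutant and control values of the sorted and untreated TRAP libraries therefore took part in naming the genes, and they are described here without a test. Counts past the thresholds are given for them only beside the share over all genes, and nothing is read from them. Levels are log2(value + 1), where the value is a fragment estimate divided by the size factor of the library. Levels of different genes were ranked only per kilobase of the matching GENCODE transcript, and the sorted and TRAP tables were scaled separately. That transcript has 4715 bases for Atp5g1, 6073 for Mrps25, 1197 for Mrps22 and 757 for Mrpl55. It has 518 for Timm8b, 488 for Mrps21 and 312 for Atp5l2-ps, and for Mrps21 the match is not exact. The order therefore depends on the transcript taken. Before division by length, the sorted control medians were 6434.85 for Atp5g1 and 6540.5 for Timm8b.

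In the sorted controls the highest level per kilobase was that of Mrps21 (17127 ± 2473, SD, n = 5), followed by Timm8b (13223 ± 2677). These neighbours overlapped, with 14435 to 20330 for Mrps21 and 10123 to 17239 for Timm8b. Mrpl55 (2380 ± 426), Atp5g1 (1398 ± 290), Mrps22 (645 ± 69.9) and Mrps25 (559 ± 55.5) came next, and the last pair overlapped as well. Atp5l2-ps lay far below them at 20.4 ± 8.24. In the untreated TRAP controls (n = 3) Timm8b came first with 276 ± 2.93 per kilobase and Mrps21 next with 126 ± 45.0. Mrpl55 (24.6 ± 4.82), Mrps22 (13.3 ± 3.06), Atp5g1 (10.7 ± 2.68) and Mrps25 (6.41 ± 0.294) followed, of which Mrps22 and Atp5g1 overlapped. In the untreated TRAP mutants Mrpl55 came after Mrps22 and Atp5g1 in this order, at 11.9 ± 4.13 per kilobase against 34.1 ± 5.22 and 17.1 ± 2.59, with its 7.77 to 16.0 overlapping the 15.0 to 20.0 of Atp5g1.

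Total RNA of the ATP synthase gene Atp5g1 was split among the mutants. Its log2 level was 11.72, 11.82 and 10.72 in mutants 61, 74 and 103 and 12.99 and 12.86 in mutants 167 and 191. In controls 45, 48, 144a, 144b and 176 it was 12.94, 12.96, 12.65, 12.55 and 12.20. The 3 mutants tagged MS2723 lay below every control, and the 2 tagged MS3005 lay among or above the highest controls. The difference, mutant minus control, was -0.64 ± 0.41 (limma SE) on the log2 scale. Atp5l2-ps was below the filter on low values, with 2 to 10 estimated fragments in each control library and 7 to 12 in each mutant library, and was not fitted in any comparison.

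Mrps22 was the gene of the group whose sorted genotypes did not overlap, and the share of all genes without overlap was not counted. Its log2 levels were 10.05, 9.86, 10.01, 9.83 and 10.08 in mutants 61, 74, 103, 167 and 191. In controls 45, 48, 144a, 144b and 176 they were 9.40, 9.52, 9.73, 9.77 and 9.52. Every mutant library lay above every control library, under either tag, and the log2 difference was 0.38 ± 0.14. The other small-subunit genes did not share this. Mrps21 lay between 12.23 and 13.55 in mutants and between 12.78 and 13.28 in controls (-0.27 ± 0.26), and Mrps25 between 11.31 and 12.02 in mutants and between 11.49 and 11.87 in controls (-0.10 ± 0.18). Mrpl55, of the large subunit, ranged from 10.49 to 11.09 in mutants and from 10.41 to 11.05 in controls (-0.07 ± 0.18).

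Timm8b followed the split of Atp5g1. Its log2 level was 12.26, 12.53 and 11.62 in mutants 61, 74 and 103, and 13.16 and 12.83 in mutants 167 and 191. Controls 45, 48, 144a, 144b and 176 had 12.84, 13.12, 12.60, 12.68 and 12.36. The genotypes overlapped, with a log2 difference of -0.24 ± 0.29. Of the 6 genes fitted in sorted PCs, 0 passed an unadjusted p under 0.01 with a fold change above 2, where 1.47% of all 16455 genes did. The median log2 difference was -0.17 for the 6 genes and 0.03 for all genes.

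**Figure D1:**
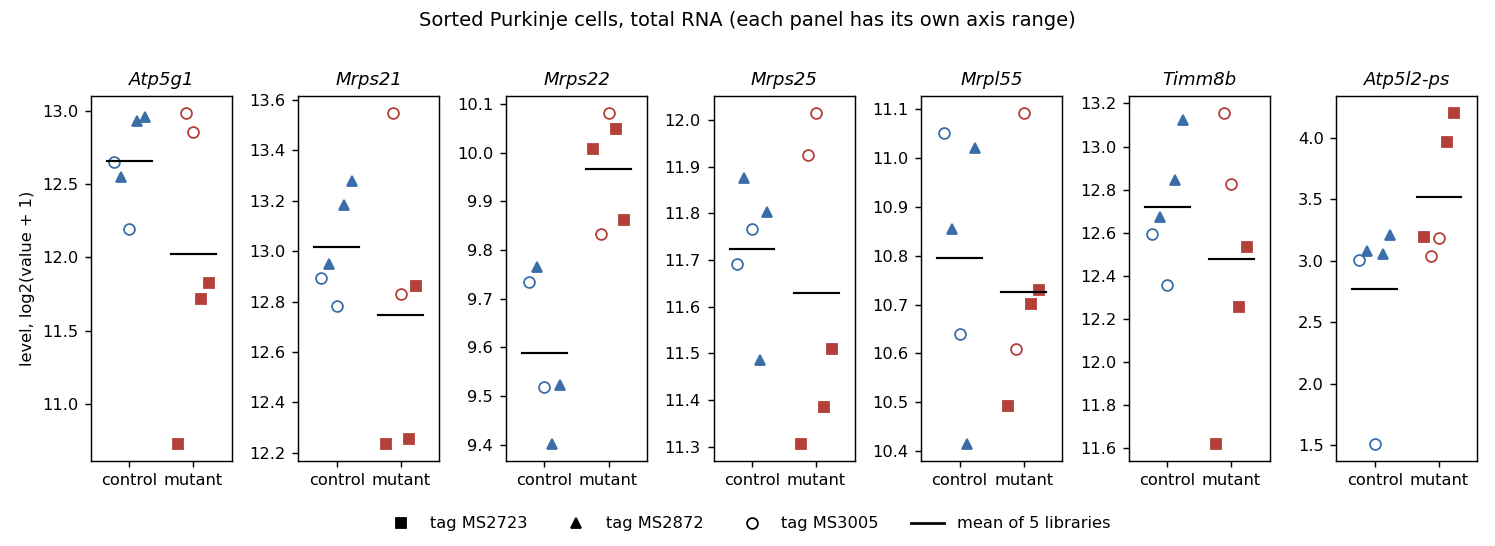
Total RNA level, log2(value + 1), of the 7 genes in the 5 control and 5 mutant sorted libraries, with the symbol giving the tag of the library name and the line the mean of 5 libraries. The mutants tagged MS2723 (squares) sit below every control for Atp5g1, and the Mrps22 panel has its 2 genotypes apart.

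Within the tag that holds both genotypes, the picture of total RNA was different. With the 2 mutants and 2 controls tagged MS3005, the log2 difference of Atp5g1 was 0.50, that of Timm8b 0.52, that of Mrps21 0.35 and that of Mrps25 0.24, each opposite in sign to its value over all 10 libraries. Mrps22 was at 0.33, close to its pooled value, and Mrpl55 at 0.01. A fit over all 10 libraries with the tag as a term gave these same 6 values, since only this tag contains both genotypes. All 6 genes were above 0 in this setting, against 1 over all libraries. The mutants outside it, tagged MS2723, were those with the low PC marker sum, and the part of either the tag or the marker level in these differences was not tested. With 144a and 144b averaged into 1 control, the 6 pooled differences ranged from -0.65 for Atp5g1 to 0.42 for Mrps22.

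In ribosome-bound mRNA of untreated mice, the genotype difference was above 0 for 5 of the 6 genes, beside 54.6% of all 9658 genes. These libraries took part in naming the genes, so the count is a description. The share of all genes without overlap between groups was not counted in this or any other comparison. For Mrps22, the log2 TRAP level was 4.24, 4.26 and 3.67 in controls 1, 2 and 3 and 5.59, 5.38 and 5.15 in mutants 1, 2 and 3. The difference was 1.32 ± 0.35. For Timm8b the controls had 7.19, 7.16 and 7.17 and the mutants 7.73, 7.92 and 8.15, a difference of 0.77 ± 0.32. For Atp5g1 the controls had 5.26, 5.99 and 5.69 and the mutants 6.57, 6.17 and 6.28, a difference of 0.69 ± 0.36. All 3 genes thus had mutants above controls without overlap. So had Mrps21, with 5.44 to 6.44 in controls against 6.56 to 7.12 in mutants (0.88 ± 0.40), and Mrps25, with 5.25 to 5.38 and 5.60 to 6.34 (0.65 ± 0.35).

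Mrpl55 went the other way. Its log2 TRAP level was 3.95, 4.48 and 4.40 in controls and 2.78, 3.33 and 3.72 in mutants, a difference of -1.0003 ± 0.39. Every mutant library lay below every control library, but these levels rest on few molecules, with 17 to 36 fragments in a control library and 3 to 40 in a mutant library. Of the 6 genes, 1 (Mrps22) passed both thresholds, where 1.96% of all 9658 genes did. With each of the 6 libraries left out in turn the difference of Mrps22 was 1.12 to 1.43, and it passed them in none of these 6 fits. Atp5l2-ps was listed at 0 in every TRAP library but control 2, where it had 1 fragment. The astroglial markers summed to 381 to 512 in the untreated mutants and to 105 to 204 in the untreated controls, each of the 5 being present in every control library. Of the 4 tested, Gfap (log2 difference 2.71) and Apoe (1.92) were called higher, Tnc (-2.27) was called lower, and Bcan was at -0.71. The PC markers summed to 9341 to 10528 in the untreated mutants and 11361 to 13018 in the untreated controls, without overlap. Of the 13 tested, 3 were above 0, 1 was called lower and 0 higher. Their median was -0.21 and their highest value 0.29, and Skor2 (-1.36) and Itpr1 (-1.03) were the lowest. The 9 microglial markers summed to 36.1 to 54.9 in the untreated mutants and to at most 6.90 in the untreated controls, with C1qc, Cd74, Havcr2 and Ikzf1 at 0 in the controls. The part of these markers in the differences of the 6 genes was not tested.

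The change of TRAP relative to total RNA, the measure by which the study listed the genes, was the TRAP difference minus the sorted difference on the log2 scale. It was 1.33 ± 0.59 for Atp5g1, 1.15 ± 0.44 for Mrps21, 1.01 ± 0.42 for Timm8b, 0.94 ± 0.29 for Mrps22, 0.74 ± 0.32 for Mrps25 and -0.93 ± 0.36 for Mrpl55. Of the 6, 0 had an adjusted limma p under 0.05, where 0.437% of all 9374 genes did. The median over all genes was 0.19. The measure of Atp5g1 and Timm8b depended on which sorted libraries were used: with those tagged MS3005 it was 0.19 for Atp5g1, 0.25 for Timm8b, 0.53 for Mrps21 and 0.40 for Mrps25. For Mrps22 and Mrpl55 it was 0.99 and -1.01 there, close to the values over all libraries.

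**Figure D2:**
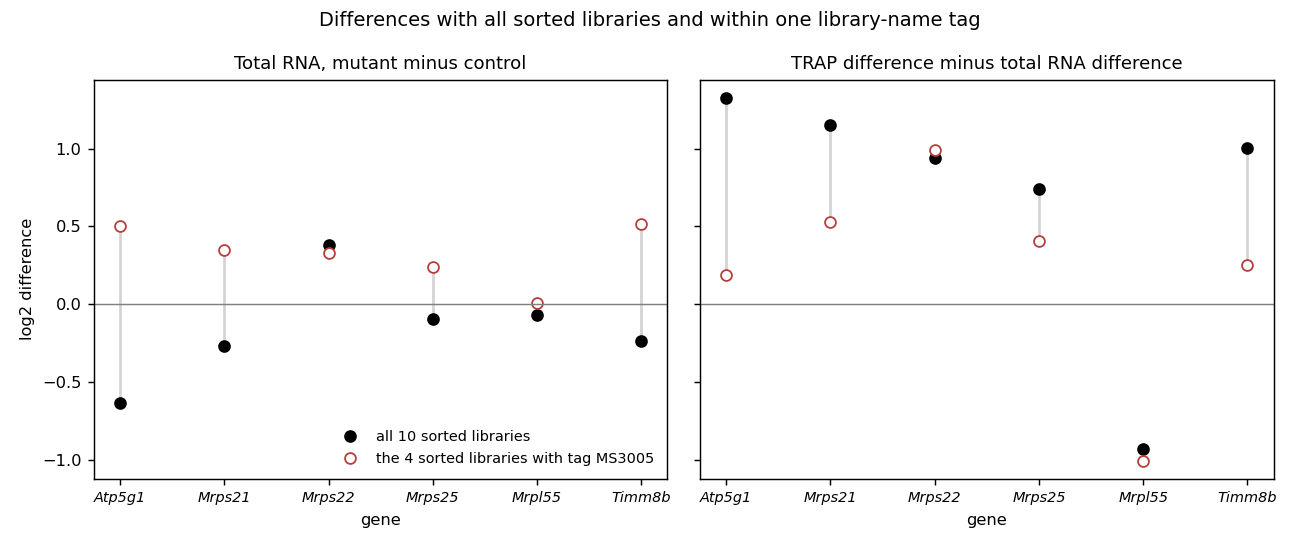
Log2 genotype difference of total RNA (left) and TRAP difference minus total RNA difference (right) of 6 genes, with all 10 sorted libraries (filled) and with the 4 tagged MS3005 (open). Atp5g1 moves from -0.64 to 0.50 on the left and from 1.33 to 0.19 on the right, while Mrps22 and Mrpl55 hardly move.

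Mice treated with rapamycin gave the genotype comparison that did not take part in naming the genes, so here limma could be used as a test. For Mrps22 the log2 TRAP level was 4.38, 3.86 and 4.14 in mutants 1, 2 and 3, and 0, 3.01 and 4.28 in controls 1, 2 and 3. The genotypes overlapped, with a difference of 1.69 ± 1.11 (limma adjusted p = 0.873). Control 1, in which the gene was listed at 0, decided this value: without it the difference was 0.48, and without control 3 it was 2.62. For Atp5g1 the mutants had 5.92, 4.73 and 6.11 and the controls 5.15, 4.78 and 4.49, a difference of 0.78 ± 0.61 (limma adjusted p = 0.873). Mutant 2 was among the controls, and without it the difference was 1.21.

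Mrps25 did not overlap between the genotypes under rapamycin, and the share of all genes without overlap was not counted. For 60.7% of all 8728 genes the difference was below that of Mrps25. Its log2 TRAP level was 5.15, 5.85 and 5.48 in mutants and 4.58, 5.07 and 4.96 in controls, a difference of 0.62 (95% confidence interval -0.63 to 1.87, limma adjusted p = 0.873). Mrps21 ranged from 6.19 to 6.77 in mutants and from 5.42 to 6.52 in controls, with a difference of 0.57 (interval -0.77 to 1.92). Mrpl55 ranged from 3.77 to 3.98 in mutants and from 3.64 to 5.70 in controls, with a difference of -0.63 (interval -2.27 to 1.01), and without control 3 this was -0.03.

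Timm8b had no steady direction under rapamycin. Its log2 TRAP level was 6.996, 5.78 and 6.83 in mutants and 6.09, 7.99 and 6.05 in controls, a difference of -0.17 (interval -1.98 to 1.64, limma adjusted p = 0.973). It was 0.47 without control 2 and 0.20 without mutant 2. Of the 6 genes, 0 passed both thresholds, and 1.23% of all 8728 genes did. None had an unadjusted p under 0.05, and limma-voom called 0 as well. The intervals are wide, and each of the 6 includes the difference measured in the untreated mice. The PC markers summed to 10018 to 11279 in the treated mutants and 8846 to 10342 in the treated controls, the astroglial markers overlapped at 61.0 to 192 and 60.1 to 136 (Tnc at 0 in the controls), and 0 of their 14 and 4 tested genes were called (1 and 0 at an unadjusted p under 0.05). A difference above 0 was found for 4 of the 6 genes, with a median of 0.60, where 63.0% of all genes were above 0 with a median of 0.32.

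**Figure D3:**
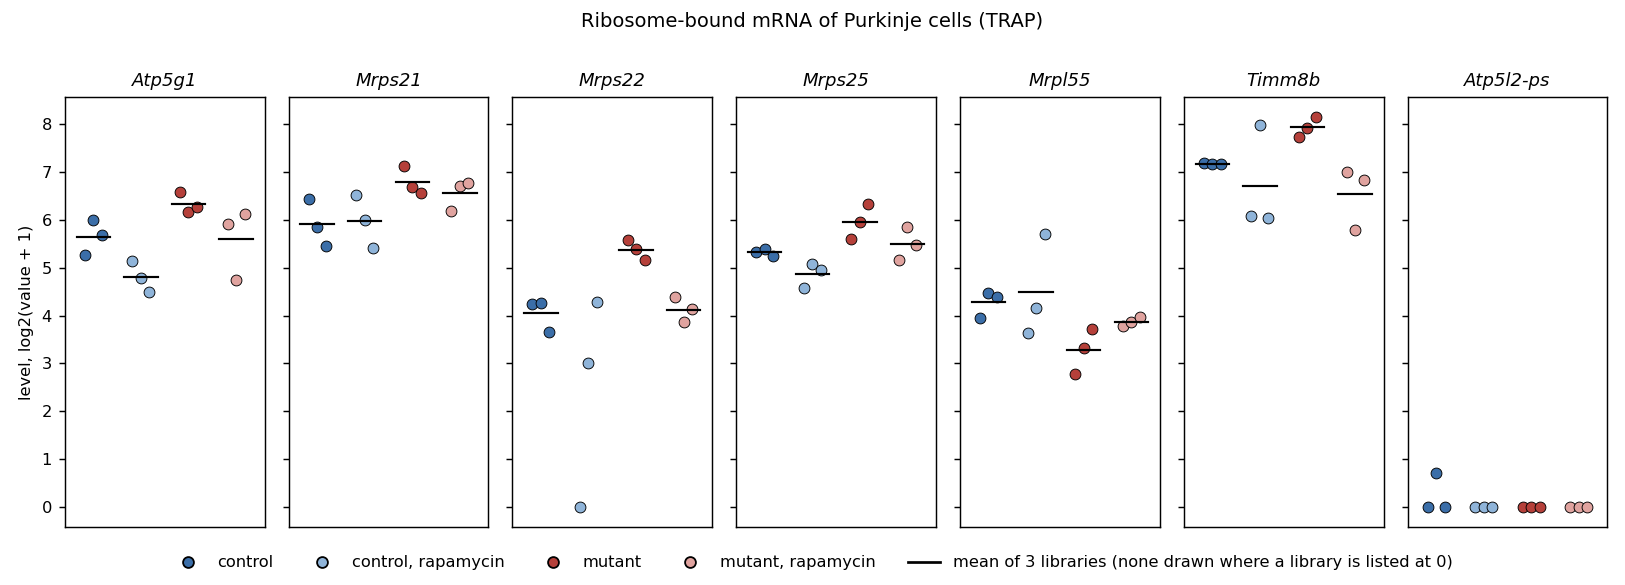
TRAP level, log2(value + 1), of the 7 genes in the 3 libraries of each group, with the line at the mean of 3 libraries where no library was listed at 0. The untreated mutants lie above the untreated controls for Atp5g1, Mrps21, Mrps22, Mrps25 and Timm8b and below them for Mrpl55, and the Atp5g1, Mrps22 and Timm8b values of treated mutants lie below those of untreated mutants and the Mrpl55 values above them.

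Rapamycin was then compared with no rapamycin in each genotype. Both comparisons reuse the untreated libraries that named the genes, so their values, calls and p-values are a description and not an independent test. Genes named through values that were high or low in untreated mutants can move back in any other group of libraries. Each comparison also shares a group with the genotype comparisons above. In mutants, Mrps22 fell under rapamycin: its log2 TRAP level was 5.59, 5.38 and 5.15 without and 4.38, 3.86 and 4.14 with the drug, without overlap. The difference was -1.25 ± 0.32 (limma adjusted p = 0.524). It passed the unadjusted threshold and failed the correction over all genes. When each of the 6 libraries in turn was left out, the difference was -1.38 to -1.11 and the unadjusted call was lost each time. The levels rest on 9 to 11 fragments in a treated mutant library.

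Timm8b had the largest difference of the 6 genes in mutants, at -1.40 ± 0.42. Its log2 levels were 7.73, 7.92 and 8.15 without and 6.996, 5.78 and 6.83 with rapamycin, again without overlap. It missed the unadjusted threshold (limma adjusted p = 0.589). Atp5g1 had 6.57, 6.17 and 6.28 without and 5.92, 4.73 and 6.11 with rapamycin, also without overlap, a difference of -0.75 (interval -1.81 to 0.31). Mrps25 was at -0.47 (interval -1.33 to 0.39) and Mrps21 at -0.24 (interval -1.05 to 0.57). Mrpl55 was the gene above 0, at 0.59 (interval -0.25 to 1.44), each treated library lying above each untreated one, and at -0.17 when library totals were set equal. Of the 6 genes, 1 (Mrps22) was called, where 1.75% of all 9664 genes were. The median was -0.61 for the 6 genes and -0.04 for all genes.

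The astroglial markers moved in the same comparison. Of the 5, 3 were tested and 2, Gfap and Apoe, were called lower with rapamycin in mutants. Gfap, the intermediate filament of astrocytes, fell by 2.39 ± 0.39 (limma adjusted p = 0.393), and Apoe, a lipid carrier made by astrocytes, fell by 2.06 ± 0.50 (limma adjusted p = 0.509). Their list summed to 381 to 512 without and 61.0 to 192 with the drug, and no astroglial marker was at 0 in every library of either group. Apoe was the astroglial gene with the highest TRAP mean. The microglial markers summed to 36.1 to 54.9 without and 1.81 to 12.9 with the drug. The part of these markers in the Mrps22 and Timm8b values was not tested. The 14 PC markers summed to 9341 to 10528 without and 10018 to 11279 with rapamycin in mutants, and 0 of the 14 tested were called (2 at an unadjusted p under 0.05).

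In controls 0 of the 6 genes passed the thresholds under rapamycin, by limma or limma-voom, where 1.05% of all 8682 genes did by limma, and 0 had an unadjusted p under 0.05. Mrps22 had 4.24, 4.26 and 3.67 without and 0, 3.01 and 4.28 with rapamycin, a log2 difference of -1.62 (interval -4.27 to 1.02), which was -0.41 without the library listed at 0. Atp5g1 had 5.26, 5.99 and 5.69 without and 5.15, 4.78 and 4.49 with rapamycin, without overlap, at -0.84 (interval -2.16 to 0.47). Timm8b was at -0.46 (interval -2.14 to 1.22), with treated control 2 above every untreated control and the other two below. Mrps25 had 5.25 to 5.38 without and 4.58 to 5.07 with rapamycin, again without overlap, at -0.44 (interval -1.68 to 0.79). Mrps21 was at 0.07, or -0.0233 by quantile normalization, and Mrpl55 at 0.22. The median was -0.45 for the 6 genes and -0.31 for all genes. The PC markers summed to 11361 to 13018 without and 8846 to 10342 with rapamycin in controls, without overlap, and all 13 tested were below 0 with a median of -0.59 and 0 calls (0 at an unadjusted p under 0.05). The astroglial sums overlapped, at 105 to 204 and 60.1 to 136, and the part of either list in these differences was not tested.

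The interaction of genotype and rapamycin, fitted over all 12 TRAP libraries, is the drug difference in mutants minus that in controls. It reuses the 6 untreated libraries that took part in naming the genes, so its values are a description. The thresholds were passed by 0 of the 6 genes and by 1.91% of all 9174 genes. Timm8b had the value farthest from 0, -0.94 ± 0.81, followed by Mrps22 at 0.38 ± 1.21, Mrpl55 at 0.37 ± 0.77, Mrps21 at -0.31 ± 0.65, Atp5g1 at 0.09 ± 0.67 and Mrps25 at -0.03 ± 0.57. The interval for Mrps22 ran from -2.29 to 3.04. That Mrps22 passed the unadjusted thresholds in mutants and not in controls does not show that its response differed between them.

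**Figure D4:**
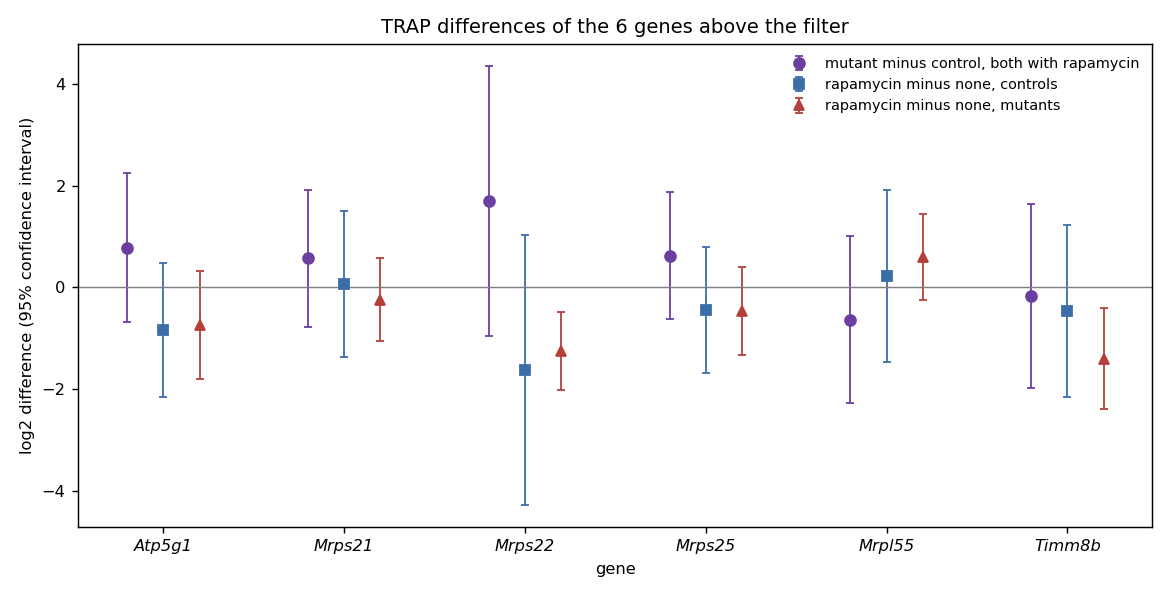
Log2 TRAP differences with their 95% confidence intervals for the 6 genes: mutant minus control with rapamycin (circles), rapamycin minus none in controls (squares) and in mutants (triangles). The intervals of Mrps22 and Timm8b in mutants lie below 0, at -2.02 to -0.48 and -2.40 to -0.41, and every interval of the genotype comparison includes 0.

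Other mitochondrial genes paired with a symbol were taken in 5 lists of 33 genes, together with 4 cytosolic ribosomal protein genes. Their symbols come from gene tables the study made on the sorted and untreated TRAP libraries, so their counts are not independent evidence of a direction wherever those libraries enter. In the genotype comparison under rapamycin 27 of the 33 were tested, 2 were called higher in mutants and 0 lower, beside 1.23% of all genes called, and 18 were above 0, beside 63.0% of all genes, with a median of 0.70 against 0.32 over all genes. Both calls were in the list of proteases and quality control (5 of 5 tested, 4 above 0). Pptc7, a mitochondrial phosphatase, had a log2 TRAP level of 5.37 to 6.11 in treated mutants and 2.57 to 4.19 in treated controls, a difference of 2.57 ± 0.64 (limma adjusted p = 0.749). Pitrm1, a peptidase that clears cleaved presequences in the matrix, was at 4.93 to 5.28 in treated mutants and listed at 0 in all 3 treated controls (limma adjusted p = 0.0616). A value of exactly 0 in 3 libraries can be a failed estimate, and no fold is given for it.

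Among genes closest in role to the small- and large-subunit genes, the list of mitoribosome and mitochondrial gene expression held 7 genes, such as Dap3, a small-subunit protein, and Tfb1m, an rRNA methyltransferase. Of its 6 tested genes 0 were called under rapamycin, 0 had an unadjusted p under 0.05 and 2 were above 0, with a median of -0.50. Its gene with the highest TRAP mean, mt-Rnr2, is the large rRNA of the mitochondrial ribosome. It had log2 TRAP levels of 6.29 to 8.25 in untreated controls and 6.51 to 6.63 in untreated mutants, and in sorted PCs it was listed at 0 in all 5 controls and in mutants 74 and 103 but at 19.52 to 20.00 in the others. An exact 0 for so abundant an RNA can be a failed estimate, and no fold is given.

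In the list of ubiquinone, electron transfer and assembly, 0 of 5 tested genes were called under rapamycin (0 at an unadjusted p under 0.05) and 4 were above 0, with a median of 0.73. Coq9, a lipid-binding protein of ubiquinone synthesis, had the highest TRAP mean of this list, with a difference of 0.25 ± 0.58. In matrix metabolism 0 of 6 were called (2 at an unadjusted p under 0.05) and 5 were above 0, with a median of 1.15. Mdh2, the malate dehydrogenase of the citric acid cycle, had the highest TRAP mean there and a difference of 0.37 ± 0.64. Among inner membrane carriers 0 of 5 were called (0 at an unadjusted p under 0.05) and 3 were above 0. Slc25a23, a calcium-dependent carrier of ATP-Mg and phosphate, had the highest TRAP mean there, at 0.36 ± 0.55. Pink1, the kinase that marks damaged mitochondria, had the highest TRAP mean among proteases and quality control, at -0.03 ± 0.57.

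Of the 28 list genes tested for rapamycin in controls, 2 were called lower, Pptc7 and Pitrm1, and 0 higher, beside 1.05% of all genes called, with a median of -0.83 over the 28 against -0.31 over all genes. Pptc7 went from 5.31 to 5.82 without to 2.57 to 4.19 with the drug, a difference of -2.40 ± 0.65 (limma adjusted p = 0.85). Pitrm1 was at 3.73 to 4.53 without it and listed at 0 with it (limma adjusted p = 0.176). In mutants 1 of 31 list genes was called lower and 0 higher, close to the 1.75% of all genes called, with a median of -0.33 against -0.04 over all genes. That gene was Acad8, isobutyryl-CoA dehydrogenase of valine breakdown, at 4.22 to 5.10 without and 1.23 to 3.33 with rapamycin, a difference of -2.20 ± 0.59 (limma adjusted p = 0.544). Before the log, the Acad8 values with rapamycin were 1.35 to 9.05 in mutants, near the floor of these libraries. The interaction was called for 3 of 29 list genes, beside 1.91% of all genes, and each was above 0, as were 86.9% of all calls: Pitrm1 (limma adjusted p = 0.034), Pptc7 and Mccc1, a subunit of the carboxylase of leucine breakdown that is named after its values were seen. The Pitrm1 value rests on the treated controls listed at 0. With quantile normalization, equal totals, a replicate block or limma-voom, 0 of all genes had an adjusted p under 0.05 for the interaction.

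The 4 cytosolic ribosomal protein genes, Rpl5, Rpl37, Rplp0 and Rps16, had 0 calls in the genotype comparison under rapamycin and 0 in either rapamycin comparison, and none had an unadjusted limma p under 0.05 there. Their medians were -0.34 under rapamycin, 0.00 for the drug in controls and -0.63 for the drug in mutants. Rpl5, which had the highest TRAP mean of the 4, stood at 6.04 to 7.05 in untreated mutants and 6.49 to 8.17 in treated ones, with a difference of 0.66 ± 0.54.

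**Figure D5:**
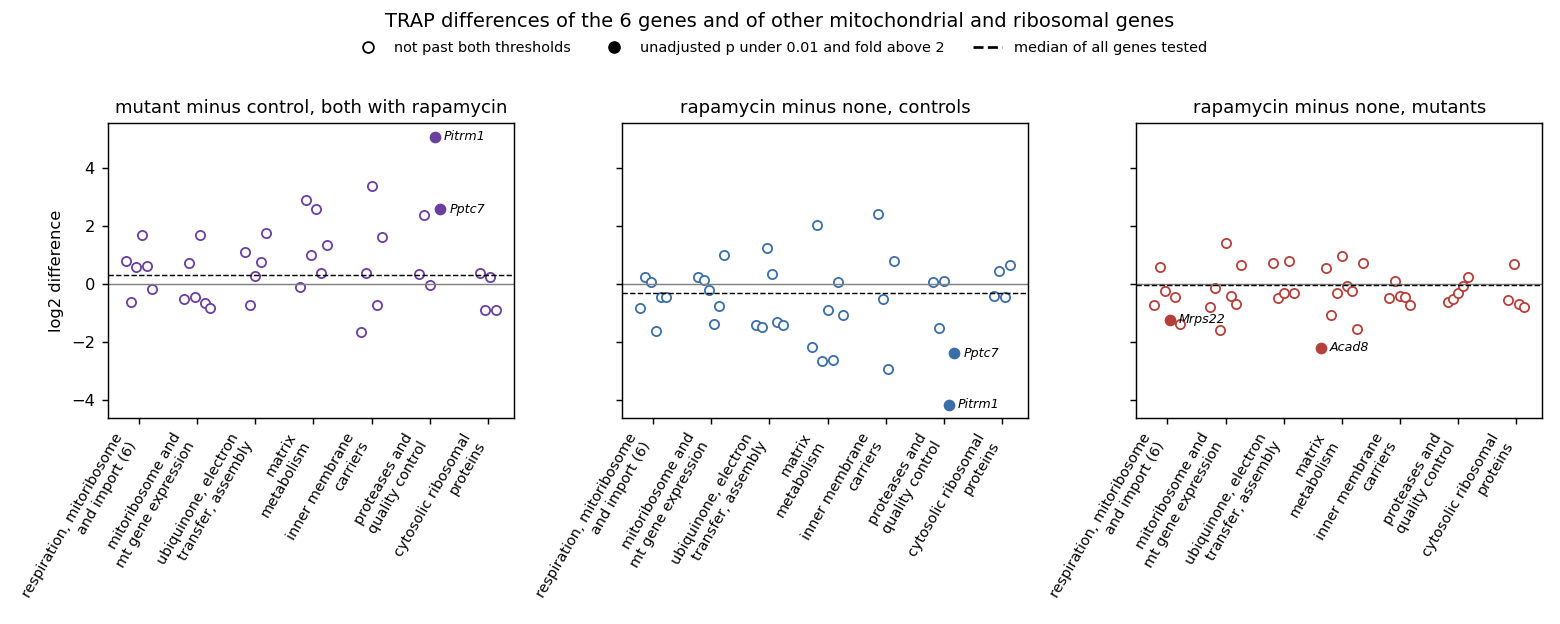
Log2 TRAP differences of the 6 genes and of the genes in 6 lists, with filled symbols for genes past both thresholds (fold above 2, unadjusted limma p under 0.01) and a dashed line at the median of all genes tested. Pitrm1, plotted from a fit against libraries listed at 0, and Pptc7 are filled in the first 2 panels, and Mrps22 and Acad8 in the third.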

How the data were processed

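RNA of sorted PCs (10 libraries) was made into libraries with a SmartSeq v4 kit. Libraries of TRAP RNA (12 libraries) were made at a core facility, and the methods name no kit for them. The paper treats differing library preparation as a confounder between total and TRAP RNA. Both kinds were sequenced as paired-end reads. Per the labels and methods, the authors trimmed reads with Trimmomatic 0.39, mapped them with STAR 2.7.0f to GRCm38 and quantified loci with Cufflinks 2.2.1 on an assembly of the sorted PCs (versions from the submitters' processing notes). The deposited values are a signal, estimated fragments divided by 1 size factor per library. Of these, 65.3% to 75.2% (sorted) and 84.7% to 95.3% (TRAP) were whole multiples of 1 step within 0.02. From these, log2(value + 1) was computed (pseudocount 1). Genes were kept where this averaged 5 or more (sorted) or 2 or more (TRAP) over the libraries compared, and were fitted with limma 3.58.1 in R 4.3.3, called at an unadjusted p under 0.01 and a fold above 2, with Benjamini-Hochberg adjusted p over all genes, two-sided. Fold changes on this scale understate changes of low genes. Similar transcripts were found with blastn 2.17.0 against GENCODE (at least 75 aligned bases). The genes, the lists and the marker lists were chosen with earlier results of these data known. Named genes are the 7 loci, list genes called under rapamycin or by rapamycin, and the gene with the highest TRAP mean of each list. Alternatives were 2 other pseudocounts, no filter, 2 other scalings, the name tag, 144a and 144b averaged, a replicate block, all 4 TRAP groups in 1 fit, limma-voom on estimated fragments and each library left out. TRAP RNA was prepared from the cerebellum of each animal, and p-values measure the spread between these libraries. The fits were tested on simulated data, but the settings and outcome are not given here and no result rests on them. Depth limits low TRAP values, and intervals cover the spread between libraries.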

Additional observations from a re-analysis of the deposited data

Results flagged for a closer look

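A single value stood apart from its group. In sorted control library 176 the log2 level of the pseudogene Atp5l2-ps was 1.51, against 3.01 to 3.21 in the other 4 controls, a gap of 0.883 of the range of the group. It corresponds to about 2 fragments, and the gene was below the filter. Of 14 groups of 5 sorted libraries (7 genes in 2 genotypes) examined for such a gap, chance alone marks about 1 in 20.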

How the results depend on the processing

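Counts of called genes moved with the settings. Without the filter, the counts were 702 (sorted genotype difference, 242 as reported), 441 (untreated TRAP genotype difference, 189), 535 (TRAP genotype difference under rapamycin, 107), 509 (rapamycin in controls, 91), 410 (rapamycin in mutants, 169), 381 (interaction, 175) and 26 (TRAP relative to total RNA, 41). A pseudocount of 0.1 gave 55 under rapamycin and 39 for rapamycin in controls, and one of 10 gave 95 for the interaction and 10 for TRAP relative to total RNA. Equal library totals gave 95 (untreated genotype), 31 (interaction) and 10 (TRAP relative to total RNA), and quantile normalization 63 for the last. In 1 fit of all 4 TRAP groups the counts were 65 (untreated genotype), 306 (under rapamycin), 292 (rapamycin in controls) and 59 (rapamycin in mutants). Limma-voom called 71 under rapamycin and 301 for rapamycin in mutants. The name tag as a term gave 33 (sorted) and 5 (TRAP relative to total RNA), only libraries tagged MS3005 gave 100 and 6, and averaging 144a with 144b gave 13 for the latter measure.

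Same-numbered TRAP libraries did not deviate together (correlations from -0.065 to 0.074 over 18 pairs, against -0.050 to 0.064 over 36 pairs of different numbers). With a replicate block the counts were 64 under rapamycin, 100 for rapamycin in mutants and 91 for TRAP relative to total RNA.

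Leaving out each library in turn gave 104 (without mutant 61) to 530 (without mutant 167) for sorted PCs, 98 to 354 for the untreated TRAP genotype difference, and 36 (without treated mutant 2) to 430 (without treated control 3) under rapamycin. It gave 29 to 434 for rapamycin in controls, 72 to 221 for rapamycin in mutants, 121 to 529 for the interaction and 11 to 284 for TRAP relative to total RNA.

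Some of the 6 genes changed sign. Rapamycin in controls gave -0.0233 for Mrps21 by quantile normalization, and in mutants -0.17 for Mrpl55 with equal totals. The interaction was -0.33 for Mrps22 with a pseudocount of 10, 0.0153 for Mrps25 by quantile normalization, -0.0249 for Mrpl55 by limma-voom and, with equal totals, -0.71 for Atp5g1, -0.44 for Mrpl55 and -0.45 for Mrps22. With libraries left out, the genotype difference under rapamycin was -0.50 to 0.47 for Timm8b. Rapamycin in controls was -0.21 to 0.35 for Mrps21 and -0.38 to 0.65 for Mrpl55. The interaction was -0.17 to 0.52 for Atp5g1, -0.21 to 0.16 for Mrps25, -0.0585 to 0.97 for Mrpl55 and -0.84 to 1.30 for Mrps22.

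The Mrps22 difference with rapamycin in mutants missed the thresholds with a pseudocount of 10 (-0.93), equal totals (-2.01), a replicate block (-1.25), 1 fit of all TRAP groups (-1.25) and each library left out (-1.38 to -1.11). The untreated Mrps22 difference missed them with a pseudocount of 10 (0.97), equal totals (1.72), a replicate block (1.32), 1 fit of all TRAP groups (1.32) and each library left out (1.12 to 1.43). For rapamycin in mutants, Timm8b passed them with a pseudocount of 10 (-1.31) and by limma-voom (-1.48). Equal totals moved the median of all genes for rapamycin in mutants from -0.04 to -0.81 and for the genotype difference under rapamycin from 0.32 to -0.10. The share of calls that were higher went from 27.2% to 0.862% and from 78.5% to 44.6%, and in the untreated genotype difference from 48.1% to 94.7% and in the interaction from 86.9% to 32.3%. It was 61.8% under rapamycin by quantile normalization and 50.2% for rapamycin in mutants by limma-voom. TRAP depth limits genes with few fragments, such as Mrpl55 and Mrps22. The cause of these changes was not tested.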
